A study of Mus musculus with 5 samples.

Results

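The 9 genes described here, of 55357 in the count matrices, encode the core of transforming growth factor beta (TGF-beta) signalling and were taken by symbol: the ligands Tgfb1, Tgfb2 and Tgfb3, the receptors Tgfbr1, Tgfbr2 and Tgfbr3, the latency proteins Ltbp1 and Ltbp4, and the inhibitor Smad7. They were followed in tibialis anterior, a fast hind-limb muscle, of female C57BL/6 mice aged 26 months, for which the labels name no allele and no agent. Mice scored at a frailty index of 0.18 or more on a count of accumulated deficits form the frail group (2 libraries), and mice below that score the controls (3 libraries). The series text describes separate mice, and all animals share strain, sex and age, so frailty was compared among old animals only. The labels describe both an enzymatic cell suspension and a sorted nuclear suspension, which the sources used here do not reconcile, and the entries are therefore called barcodes.

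TGF-beta is secreted as a latent complex in which the mature dimer stays bound to its propeptide, and latent TGF-beta binding proteins such as Ltbp1 tie that complex to the extracellular matrix until integrins or proteases free it. The free ligand assembles the type II receptor Tgfbr2 and the type I receptor Tgfbr1, which phosphorylate Smad2 and Smad3. Smad7 is itself a transcriptional target of the pathway and blocks the type I receptor, which makes it a feedback inhibitor. In skeletal muscle the pathway is known for driving matrix deposition by fibro-adipogenic cells and for restraining the differentiation of satellite cells.

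The ligand genes Tgfb1 and Tgfb2 had opposite distributions over the lineages (below), so the 250 bases before the start of each are shown as context. Tgfb1 (ENSMUSG00000002603) lies on chromosome 7 from 25687002 to 25705077 on the plus strand, and Tgfb2 (ENSMUSG00000039239) on chromosome 1 from 186622792 to 186705989 on the minus strand, in GRCm38 with GENCODE vM21. The windows come from RefSeq on GRCm38.p6, whose promoter table matched 6 of the 9 genes, and are chr7:25686752-25687001 (plus strand) and chr1:186705990-186706239 (minus strand). Capitals mark every match on either strand to a GC box (GGGCGG), a Smad element (CAGAC) or a TATA box (TATAAA).
Tgfb1: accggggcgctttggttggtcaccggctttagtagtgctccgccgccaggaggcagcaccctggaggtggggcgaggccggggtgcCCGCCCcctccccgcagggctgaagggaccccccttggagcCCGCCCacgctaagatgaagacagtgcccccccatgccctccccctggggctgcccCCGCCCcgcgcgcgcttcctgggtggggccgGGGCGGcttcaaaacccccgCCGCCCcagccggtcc
Tgfb2: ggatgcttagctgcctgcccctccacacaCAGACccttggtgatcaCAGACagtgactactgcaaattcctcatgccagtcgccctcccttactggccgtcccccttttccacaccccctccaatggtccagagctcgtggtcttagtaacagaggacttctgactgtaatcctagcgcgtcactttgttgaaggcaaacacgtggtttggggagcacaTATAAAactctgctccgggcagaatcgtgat
The Tgfb1 window is 75.2% G or C and holds 5 GC boxes and none of the other motifs. The Tgfb2 window is 53.6% G or C and holds a single TATA box, 31 bases before the start, and 2 Smad elements, with no GC box. The AP-1 letters TGANTCA were in neither window. Among 32851 windows of the same length in the table, 32.7% held the GC box, 42.2% the Smad element, 12.4% the TATA box and 6.75% the AP-1 site. The motifs do not overlap one another, and a match describes letters only.

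The 5 libraries held 68170531 to 90942121 unique molecular identifiers (UMIs, each counted as 1 captured transcript) in 9791 to 13303 barcodes. Of 56922 barcodes, 50460 were kept, those with 200 or more genes detected and a mitochondrial share of UMIs of 10% or less. The mitochondrial limit removed 17.2% of the barcodes of frail 1 and 7.49% to 11.2% elsewhere. Among the barcodes kept, the median mitochondrial share was 4.14% for frail 1 and 4.05% for frail 2. Every control lay lower, at 3.18%, 3.08% and 3.39%. Whether this difference bears on the comparisons by frailty was not tested. Between 27 and 49 barcode sequences recurred in a pair of libraries, at most 0.456% of the smaller one. Lineages were gated by 1 gene each: a barcode entered a gate with at least 2 UMIs of the gate gene and more of it than of the other 6 gate genes. The gates were Pdgfra (fibro-adipogenic), Cdh5 (endothelial), Rgs5 (pericyte), Myh11 (smooth muscle), C1qa (macrophage), Tnmd (tenocyte) and Pax7 (satellite cell). Each gate was highest for its own lineage's marker list, but some also carried the markers of another. The Rgs5 gate carried the 6 endothelial markers at 55.2% of their level in the Cdh5 gate. The Tnmd gate carried the fibro-adipogenic markers at 75.6% of their Pdgfra-gate level, and the Myh11 gate the pericyte markers at 48.4% of their Rgs5-gate level. Without barcodes of more than 1 lineage these shares were 13.5%, 75.3% and 27.7%. The last share fell as the pericyte markers rose in the Rgs5 gate, with little change in the Myh11 gate. The satellite cell markers stood at 37.2% of their Pax7-gate level in the Tnmd gate and at 36.2% in the Myh11 gate. Without barcodes of more than 1 lineage these were 36.9% and 37.1%. Whether other cells or shared expression gave these values was not tested. Barcodes with at least 2 UMIs of gate genes of more than 1 lineage made up 18.2% to 24.8% of a library. All 6 myofibre markers were detected, and their summed level was 86.6 and 588 CPM in frail libraries against 2609 to 10614 in controls (CPM, UMIs of a gene per 1000000 UMIs of the same barcodes). The same list differed in that direction in each of the 7 gates, and its part in the frailty comparisons below was not tested.

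Levels below are in CPM of the set of barcodes named, given for frail 1 and 2 and then control 1, 2 and 3. They compare lineages and libraries for one gene and not one gene with another. A gate was compared with the mean of the other 6 gates in edgeR, over 35 sums of 7 gates in 5 libraries with the library as a block. In that test 8 of the 9 genes passed in the Pdgfra gate, where 58.9% of 15706 genes did, 9 in the Cdh5 gate (63.4%), 9 in Rgs5 (43.6%), 8 in Myh11 (66.3%), 8 in C1qa (63.8%), 6 in Tnmd (46.9%) and 6 in Pax7 (47.1%). The Rgs5 count was 5 without control 1 and with a gate of 1 UMI of the gate gene and none of the others, and 6 at a mitochondrial limit of 5% and with a gate gene at least 5 times each other gate gene. The Tnmd count was 4 without control 3 and with no low-count filter. Most genes thus differed by lineage, and it is which lineage stood highest that separates the members.

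**Figure D1:**
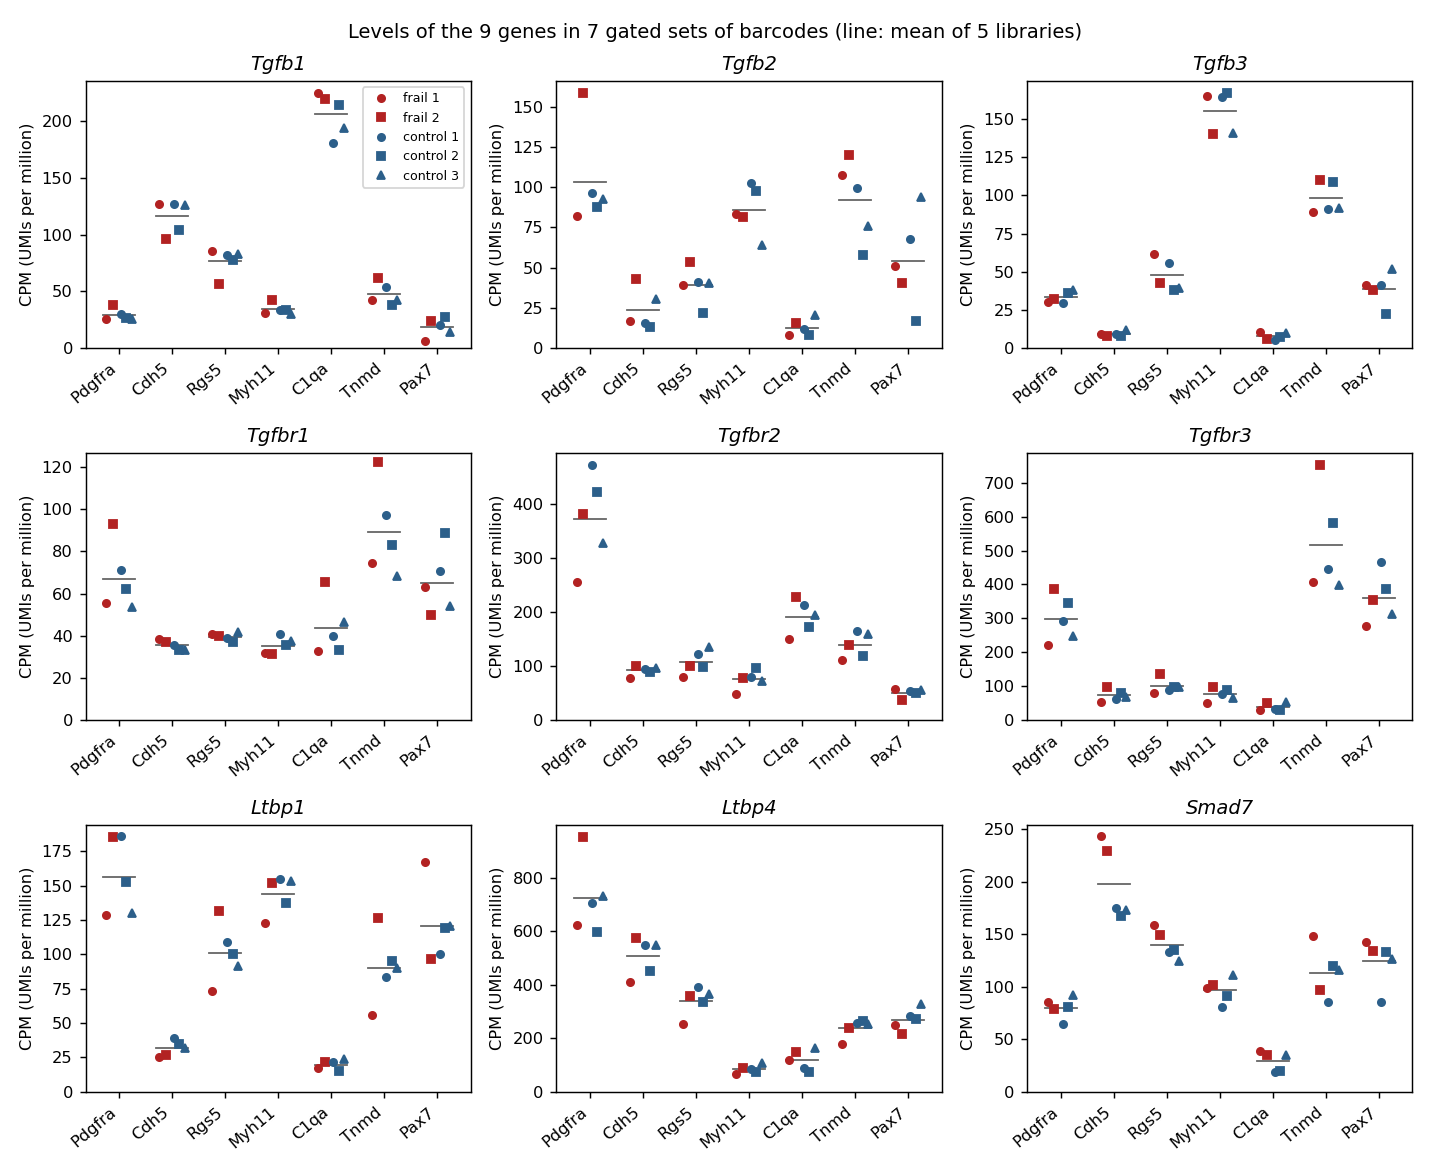
Level of each of the 9 genes (y axis, CPM, starting at 0 and scaled per panel) in the 7 gates (x axis). Each point is a library (red frail, blue control) and each line the mean of 5 libraries. Tgfb1 stands highest in the C1qa gate, Tgfb3 in the Myh11 gate, Tgfbr2 and Ltbp4 in the Pdgfra gate and Smad7 in the Cdh5 gate.

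Each of the 3 ligand genes had its highest mean in another lineage. Tgfb1, the isoform best known from immune cells and platelets, was highest in the C1qa gate at 224 and 219 in the frail and 180, 214 and 194 in the control libraries (207 ± 18.5, SD, n = 5). The Cdh5 gate followed at 127, 96.4, 127, 104 and 126, and the ranges of these gates did not overlap. The Pax7 gate was lowest at 6.09 to 27.7, resting on 6 to 26 UMIs per library, so that Tgfb1 spanned 11.2-fold between the extreme gates. Against the other gates Tgfb1 was higher in C1qa by 2.33 on the log2 scale (SE 0.10, edgeR adjusted p = 1.03e-18) and in Cdh5 by 1.25 (SE 0.11, edgeR adjusted p = 1.38e-11). Macrophage-gated barcodes held 18.2% of the Tgfb1 UMIs, with 6.17% of all UMIs, while the Cdh5 gate held 33.9%.

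Tgfb2, an isoform of mesenchymal and epithelial cells, was high in the stromal gates and low in endothelial and macrophage barcodes. In the Pdgfra gate it stood at 81.9 and 158 in the frail and 96.2, 87.7 and 92.7 in the control libraries (103 ± 31.3, SD, n = 5). The 4 libraries other than frail 2 lay between 81.9 and 96.2. The Tnmd gate (92.2 ± 25.1, SD, n = 5) and the Myh11 gate (85.8 ± 15.1, SD, n = 5) overlapped it, so these 3 gates were not separated by their spread. The C1qa gate was lowest at 8.23 to 20.5. Tgfb2 was higher in the Pdgfra gate than in the others by 1.27 on the log2 scale (SE 0.16, edgeR adjusted p = 6.90e-08) and lower in the C1qa gate (log2 -2.11, SE 0.24, edgeR adjusted p = 8.18e-09).

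Tgfb3 (ENSMUSG00000021253, chromosome 12, 86056745 to 86079041), the ligand linked to mesenchymal and smooth muscle cells, spanned 19.9-fold between its highest and lowest gate. That was the widest span of the members except with the gate of 1 UMI and none of the other gate genes, where Tgfb3 spanned 13.4-fold, Tgfb1 13.7-fold and Tgfbr3 16.6-fold. In the Myh11 gate it stood at 165 and 140 in the frail and 164, 167 and 141 in the control libraries (155 ± 13.7, SD, n = 5). The Tnmd gate was next at 89.2 to 110, and the Cdh5 and C1qa gates lay at 9.41 ± 1.54 and 7.81 ± 2.48 (SD, n = 5). The Myh11 gate was above the Tnmd gate, and the Tnmd gate above the Rgs5 gate, in 5 of 5 libraries with no overlap of ranges. With the gate of 1 UMI the Myh11 and Tnmd gates overlapped, at means of 103 and 100.5, and the Myh11 gate was above in 3 of 5 libraries. Without barcodes of more than 1 lineage the Tnmd and Rgs5 gates overlapped, with Tnmd above in 4 of 5. Tgfb3 was higher in the Myh11 gate than in the other gates by 2.60 on the log2 scale (SE 0.09, edgeR adjusted p = 5.12e-22), and lower in Cdh5 (log2 -2.27, SE 0.13, edgeR adjusted p = 1.84e-16). The Myh11 gate held 28.4% of Tgfb3 UMIs with 7.05% of all UMIs.

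The receptors were spread unevenly as well. Tgfbr2 (ENSMUSG00000032440, chromosome 9, 116084293 to 116175360), which binds the ligand, was highest in the Pdgfra gate at 255 and 381 in the frail and 473, 421 and 328 in the control libraries (372 ± 84.0, SD, n = 5). The C1qa gate followed at 150 to 228, below the Pdgfra gate in 5 of 5 libraries. The remaining neighbours in the order, Tnmd, Rgs5, Cdh5, Myh11 and Pax7, overlapped from one to the next. Tgfbr2 was higher in the Pdgfra gate than in the others by 1.85 on the log2 scale (SE 0.08, edgeR adjusted p = 7.18e-20), also higher in the C1qa gate (log2 0.87, SE 0.08, edgeR adjusted p = 9.66e-11), and lower in the Pax7 gate (log2 -1.41, SE 0.13, edgeR adjusted p = 4.72e-11). The Pdgfra gate held 54.7% of Tgfbr2 UMIs, with 32.1% of all UMIs.

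Tgfbr1 (ENSMUSG00000007613, chromosome 4, 47353222 to 47414931), the kinase that phosphorylates the receptor Smads, was the most even member, with 2.53-fold between its highest and lowest gate. It ran from 35.3 ± 4.01 in the Myh11 gate to 89.1 ± 21.4 in the Tnmd gate (SD, n = 5), and every pair of neighbouring gates overlapped. It was still higher in the Tnmd gate than in the others by 0.93 on the log2 scale (SE 0.10, edgeR adjusted p = 6.03e-09). Tgfbr3 (ENSMUSG00000029287, chromosome 5, 107106570 to 107289629) encodes betaglycan, a co-receptor that presents ligand, Tgfb2 above all, to Tgfbr2. Its levels fell into a high and a low set of gates. The Tnmd gate stood at 407 and 752 in the frail and 445, 580 and 400 in the control libraries, the Pax7 gate at 278 to 466 and the Pdgfra gate at 221 to 386. The other 4 gates were all lower, from 38.5 ± 12.1 in C1qa to 99.7 ± 21.5 in Rgs5 (SD, n = 5), and the Pdgfra and Rgs5 ranges did not overlap. Tgfbr3 was higher in the Tnmd gate (log2 2.15, SE 0.08, edgeR adjusted p = 5.04e-21) and in the Pax7 gate (log2 1.58, SE 0.09, edgeR adjusted p = 6.82e-16) than in the others. The satellite-cell gate therefore combined a high level of the co-receptor gene with the lowest mean level of Tgfbr2 among the 7 gates, 50.3 ± 7.94 (SD, n = 5).

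Of the latency proteins, Ltbp1 was low in endothelial and macrophage barcodes, and Ltbp4 was high in fibro-adipogenic and endothelial barcodes. Ltbp1 (ENSMUSG00000001870, chromosome 17, 75005568 to 75392512), which binds all of the latent isoforms, stood at 128 to 186 in the Pdgfra gate and 123 to 155 in the Myh11 gate, which overlapped, at 121 ± 28.2 in Pax7, and at 31.7 ± 5.65 in Cdh5 and 19.8 ± 3.39 in C1qa (SD, n = 5). Which of the leading gates is first depended on the filters, since the Myh11 gate led with a mitochondrial limit of 5% or with a gate gene at least 5 times each other gate gene, and the Pax7 gate was second with the gate of 1 UMI. Ltbp4 (ENSMUSG00000040488, chromosome 7, 27305136 to 27337692), which interacts with Tgfb1 and with elastic fibres, stood in the Pdgfra gate at 625 and 954 in the frail and 706, 597 and 733 in the control libraries (723 ± 141, SD, n = 5). The Cdh5 gate followed without overlap at 411 to 575. The Myh11 gate was lowest, at 83.7 ± 15.9 (SD, n = 5; the C1qa gate was lowest with the gate of 1 UMI), so the latency genes went opposite ways in smooth muscle. There Ltbp1 was higher than in the other gates by 1.17 on the log2 scale (SE 0.10, edgeR adjusted p = 2.30e-11) and Ltbp4 was lower (log2 -1.80, SE 0.11, edgeR adjusted p = 2.50e-15).

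Smad7 (ENSMUSG00000025880, chromosome 18, 75367529 to 75395935) was highest in endothelial barcodes. Its Cdh5-gate level was 243 and 230 in the frail and 175, 168 and 173 in the control libraries, above the Rgs5 gate (159, 150, 133, 135 and 125) in 5 of 5 libraries without overlap of ranges. The second place of the Rgs5 gate, at a mean of 140, depended on the choice of barcodes. Without barcodes of more than 1 lineage, when those markers stood at 13.5% of their Cdh5-gate level, Smad7 in the Rgs5 gate was at 77.9 and only the C1qa gate was lower. With a gate of 1 UMI of the gate gene and none of the others, it was at 64.7 and the markers at 9.75%, again with only C1qa lower. Depth changed as well, with the median UMIs of Rgs5-gated barcodes in frail 1 going from 4757 to 3522.5 and 3073. The part of the markers or of depth in these values was not tested. The C1qa gate was lowest at 19.2 to 38.4. Smad7 was higher in the Cdh5 gate than in the others by 1.16 on the log2 scale (SE 0.08, edgeR adjusted p = 9.66e-15) and lower in the C1qa gate (log2 -1.99, SE 0.11, edgeR adjusted p = 2.55e-17). Macrophage barcodes thus combined the highest Tgfb1 level with the lowest Smad7 level among the gates.

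**Figure D2:**
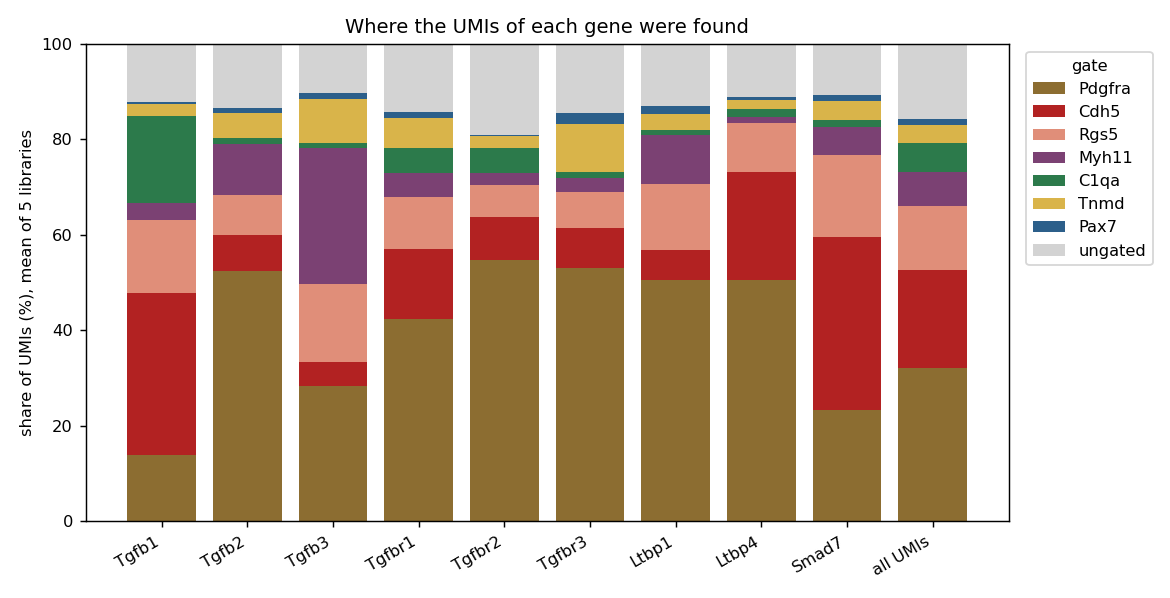
Share of each gene's UMIs found in each gate and in ungated barcodes (y axis, percent, mean of 5 libraries), with the share of all UMIs in the last bar. The Pdgfra gate held 54.7% of Tgfbr2 UMIs and 52.5% of Tgfb2 UMIs against 32.1% of all UMIs, while the Cdh5 gate held 36.2% of Smad7 UMIs against 20.6%.

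Across the 35 sums of gate and library, the members fell into loosely related patterns, given as Pearson correlations of log2 level without a test, since the sums share libraries and depth. Tgfb1 ran opposite to Ltbp1 (r = -0.86) and to Tgfb2 (r = -0.72). Tgfb2 and Tgfb3 both followed Ltbp1 (r = 0.80 and 0.79), and Tgfbr1 followed Tgfbr3 (r = 0.82). Among 9043 genes with a mean of at least 10 CPM, the 3 most like Tgfb1 were the transcription factor gene Nfatc1, Tm6sf1 and the ubiquitin ligase gene Cbl (r = 0.91 for each). Closest to Tgfb2 were Sspn, of the dystrophin complex (r = 0.92), Zfp251 and the calcium channel subunit gene Cacna2d1 (r = 0.90 for both). Cacna2d1 also came first for Tgfb3 (r = 0.95), before Ctdspl (r = 0.94) and Arhgef25 (r = 0.93). Tgfbr1 was closest to Gpnmb, Mir99ahg and the adenosine kinase gene Adk (r = 0.89, 0.89 and 0.88). Tgfbr2 was closest to the dynamin gene Dnm1 (r = 0.94), the fibronectin gene Fn1 (r = 0.93) and Apbb1ip (r = 0.92). Tgfbr3 was close to Mir100hg (r = 0.93). Closest to Ltbp1 were Twsg1, a secreted modulator of bone morphogenetic proteins (r = 0.93), Bace1 and Kirrel (r = 0.90 for both). Closest to Ltbp4 were the alcohol dehydrogenase gene Adh1 (r = 0.94), Plscr4 (r = 0.92) and Zfta (r = 0.90), and closest to Smad7 were Arid5b (r = 0.91), Hoxa5 (r = 0.89) and the coactivator gene Wwtr1 (r = 0.88).

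Frail and control muscle were then compared over all retained barcodes and within each gate, which asks whether TGF-beta signalling genes differ with frailty in old muscle. None of the 9 genes passed in any of the 8 comparisons with edgeR (Benjamini-Hochberg adjustment over all genes tested), and none passed with DESeq2. Few genes of any kind passed with edgeR: 0% of 19989 over all barcodes, 0.00625% in the Pdgfra gate, 0.0594% in Cdh5, 0% in Rgs5, 0.254% in Myh11, 0% in C1qa, 0% in Tnmd and 0.0346% in Pax7. DESeq2 called 1.44% over all barcodes and, in the same order of gates, 0.812%, 0.746%, 0.467%, 0.688%, 0.309%, 0.239% and 0.196%. At an unadjusted p under 0.05 edgeR gave 1 member over all barcodes (Smad7), where 5.6% of all genes tested were under that p, 2 in Cdh5 (Smad7 and Ltbp1, against 4.32%), 1 in Rgs5 (Tgfbr2, 4.49%) and 1 in Tnmd (Tgfb2, 5.27%). It gave 0 in Pdgfra (5.47%), Myh11 (4.94%), C1qa (5.17%) and Pax7 (4.18%). Members whose frail and control values did not overlap numbered 2 over all barcodes, where 19.7% of all genes did not overlap, 0 in Pdgfra (18.9%), 3 in Cdh5 (15.2%), 1 in Rgs5 (19.1%), 1 in Myh11 (19.8%), 1 in C1qa (18.5%), 2 in Tnmd (19.8%) and 2 in Pax7 (18.2%). Outside the Cdh5 gate these counts lie near or below the background, and in that gate the larger share rests on 3 genes.

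**Figure D3:**
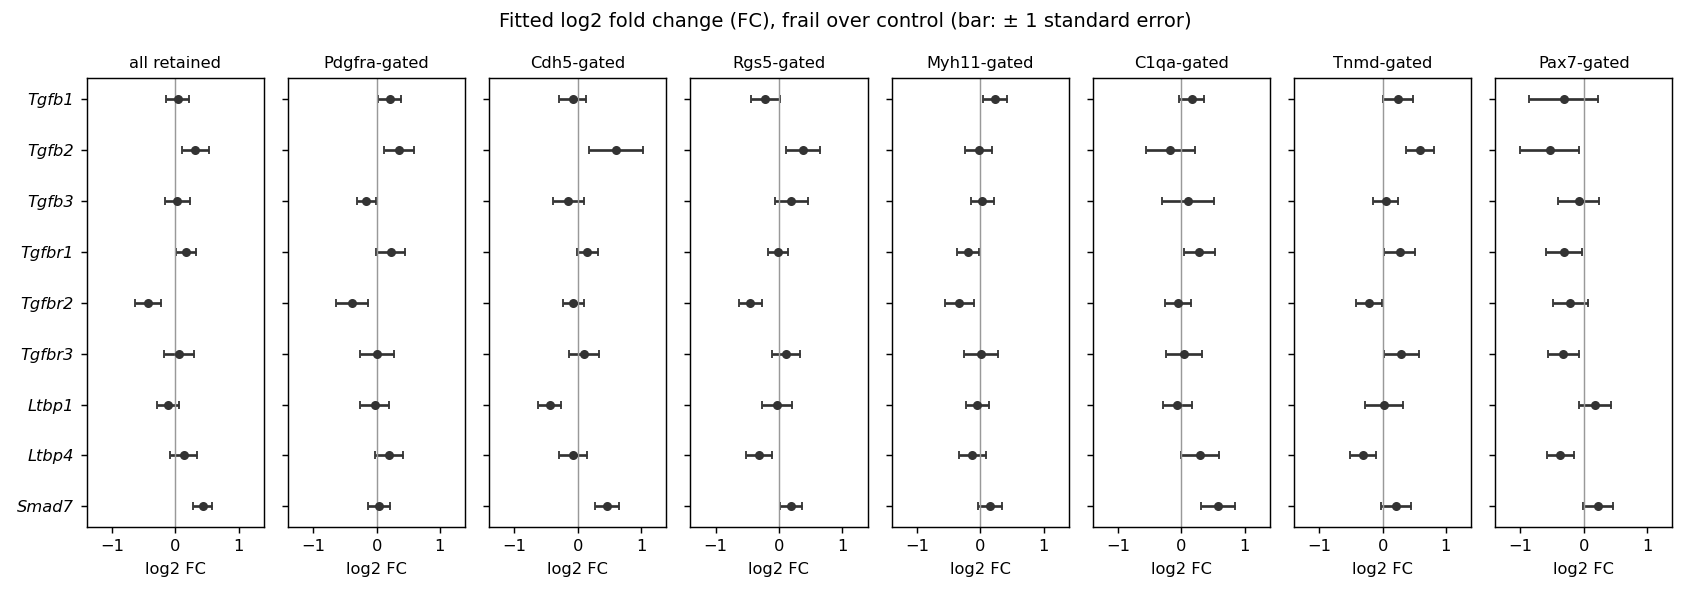
Fitted log2 fold change of frail over control (x axis) for each gene (rows) over all retained barcodes and in the 7 gates (panels), with bars of 1 standard error. Smad7 lies right of 0 and Tgfbr2 left of 0 in every panel, although Smad7 in Rgs5 and Tgfbr2 in C1qa turned with other gates (-0.09 and 0.031 in the 5-fold gate), and no point passed the adjusted threshold.

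Smad7 was the member that differed most over all barcodes, relative to its error. It stood at 137 and 133 in the frail and 93.6, 101 and 101 in the control libraries, so both frail libraries lay above every control. The fitted difference was 1.35-fold (log2 0.43, SE 0.15) and missed the adjusted threshold (edgeR adjusted p = 0.800). In such sums more barcodes of a Smad7-rich type and more Smad7 RNA per barcode cannot be told apart, and the Cdh5 gate made up 25.3% and 37.4% of barcodes in frail libraries and 27.4%, 21.0% and 12.8% in controls. Within the Cdh5 gate, 243 and 230 against 175, 168 and 173 gave 1.38-fold (log2 0.46, SE 0.19, edgeR adjusted p = 1.00). That difference lay between 0.35 and 0.57 with each library left out in turn. The Cdh5 gate carried the fibro-adipogenic markers at 8.33% of their Pdgfra-gate level, and the part of the mix of cells inside it was not tested.

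Across the gates the Smad7 difference had the same sign in 7 of 7, from log2 0.04 in Pdgfra to 0.58 in C1qa. Only in Cdh5, Rgs5 and Pax7 did the groups not overlap. The gates are sums of the same 5 libraries, so their signs are not independent. In the Rgs5 gate the fitted value of 0.19 (SE 0.18, edgeR adjusted p = 0.999) turned to -0.23 when barcodes of more than 1 lineage were removed and to -0.09 in the 5-fold gate, which carried endothelial markers at 39.9% of their Cdh5-gate level. In the C1qa gate control 3, at 34.8, reached the frail values of 38.4 and 34.7, while control 1 and 2 stood at 19.2 and 19.9. The 6 endothelial markers, all detected, summed to 418 and 570 CPM in that gate in frail libraries and to 181, 228 and 252 in controls, and their part in the C1qa value was not tested.

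Tgfbr2 ran in the opposite direction. Over all barcodes it stood at 151 and 211 in the frail and 271, 220 and 225 in the control libraries, so frail 2 lay just under the lowest control and frail 1 far below. The fitted ratio was 0.743 (log2 -0.43, SE 0.20, edgeR adjusted p = 0.932). The log2 value was -0.24 without frail 1 and -0.63 without frail 2. The part of the mix of cells in the Tgfbr2 value over all barcodes was not tested. In the Pdgfra gate, which held most Tgfbr2 UMIs, the groups overlapped (255 and 381 against 473, 421 and 328) and the fitted log2 value was -0.39 (SE 0.25, edgeR adjusted p = 0.968). All 7 gates, which share the same libraries, had a value under 0, from -0.45 in Rgs5 to -0.05 in C1qa. In the C1qa gate the value was above 0 without frail 1 (0.15), without control 1 (0.04) and under 3 other choices of gate or barcodes (0.017 to 0.21).

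**Figure D4:**
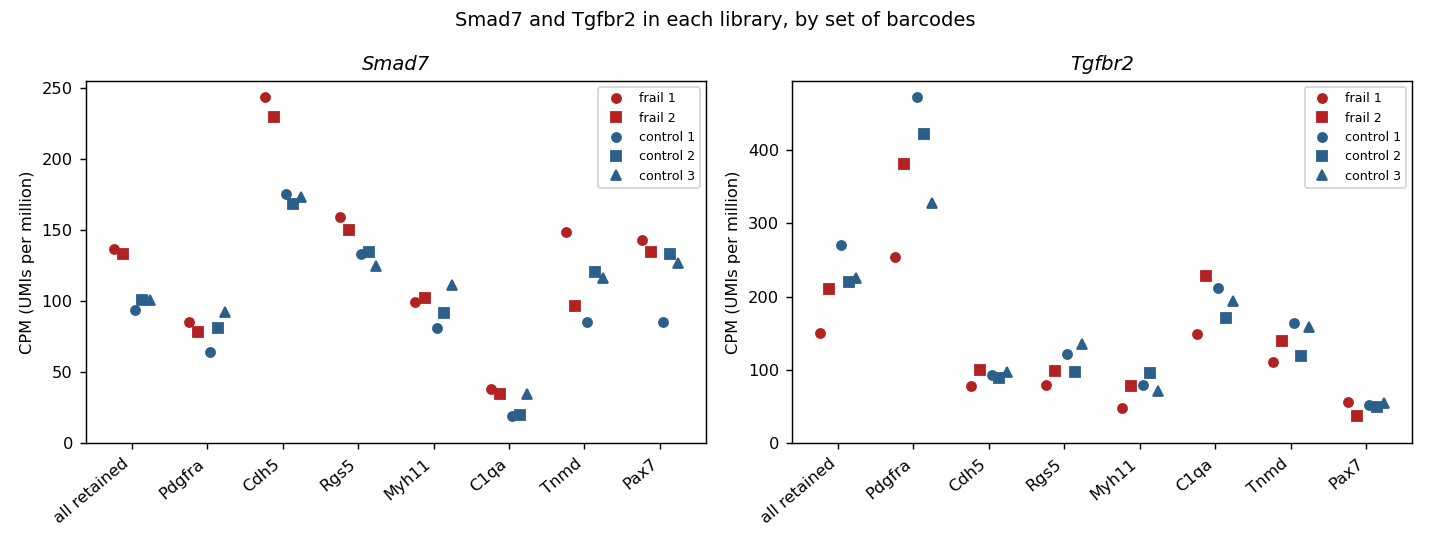
Level of Smad7 (left) and Tgfbr2 (right) in each library (y axis, CPM) over all retained barcodes and in each gate (x axis). Red points are frail and blue points control libraries. Smad7 in the Cdh5 gate stands at 230 and 243 in frail libraries and at 168 to 175 in controls, whereas Tgfbr2 in the Pdgfra gate overlaps between groups.

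The ligands did not separate the groups over all barcodes. Tgfb1 stood at 68.9 and 71.2 in the frail and 76.6, 67.9 and 56.9 in the control libraries (log2 0.04, SE 0.18, edgeR adjusted p = 0.992), and the sign turned without control 3 (-0.09). The C1qa gate made up 2.80% and 3.70% of barcodes in frail libraries and 7.43%, 5.26% and 4.88% in controls. For the Cdh5 gate these were 25.3% and 37.4% against 27.4%, 21.0% and 12.8%. The part of these shares in the Tgfb1 value was not tested. In the C1qa gate both frail libraries, at 224 and 219, were above the 180, 214 and 194 of controls by a fitted log2 0.17 (SE 0.20, edgeR adjusted p = 0.999). In the Cdh5 gate Tgfb1 gave log2 -0.08 (SE 0.21), and 0.16 without frail 2. Tgfb3 stood at 46.3 and 31.9 against 37.1, 37.4 and 39.6 over all barcodes, with frail libraries on both sides of the controls (log2 difference 0.03, SE 0.20, edgeR adjusted p = 0.994), and gave -0.32 without frail 1. The Myh11 gate was the richest in Tgfb3. That gate made up 6.43% of barcodes in frail 1 and 2.36% to 5.16% in the other libraries, and Tgfb3 within it differed by log2 0.03 (SE 0.18), which was -0.13 without frail 1 and -0.02 without control 3. In the Tnmd gate Tgfb3 gave log2 0.05 (SE 0.19), with -0.09 without frail 2 and -0.01 without control 3.

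Tgfb2 depended on frail 2. Over all barcodes it stood at 55.1 and 88.0 in the frail and 57.0, 48.0 and 64.6 in the control libraries (log2 0.31, SE 0.21, edgeR adjusted p = 0.935), and without frail 2 the value was -0.0032. In the Pdgfra gate the fitted log2 value of 0.35 (SE 0.24) became -0.15 without that library. The Tnmd gate differed from this, since both frail libraries were above all controls there, at 108 and 120 against 99.4, 57.8 and 76.0. The fitted difference in that gate was 1.50-fold (log2 0.59, SE 0.22), short of the adjusted threshold (edgeR adjusted p = 0.866), and ranged from 0.43 to 0.78 with each library left out. The Tnmd gate held 253 to 498 barcodes in frail libraries and 135 to 828 in controls.

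The other receptors and the latency proteins overlapped between groups over all barcodes. Tgfbr1 stood at 45.6 and 62.4 against 50.2, 45.0 and 46.5 (log2 difference 0.16, SE 0.16, edgeR adjusted p = 0.956), and gave -0.02 without frail 2. In the Tnmd and Pdgfra gates its values were 0.27 (SE 0.24) and 0.22 (SE 0.23), and both turned without frail 2 (-0.10 and -0.15). Tgfbr3 stood at 136 and 233 against 157, 186 and 180 (log2 difference 0.05, SE 0.24, edgeR adjusted p = 0.990), with the frail libraries at the lowest and highest end. It gave -0.33 without frail 2 and -0.01 without control 1. In the Tnmd gate the fitted Tgfbr3 value was 0.30 (SE 0.28), and -0.19 without frail 2, whereas in the Pax7 gate it was -0.32 (SE 0.24, edgeR adjusted p = 0.998) and stayed under 0 with each library left out, between -0.55 and -0.12. Ltbp4 stood at 383 and 596 against 457, 379 and 479 (log2 difference 0.13, SE 0.22, edgeR adjusted p = 0.975) and gave -0.16 without frail 2. Its leading gates gave log2 0.20 in Pdgfra (SE 0.22; -0.09 without frail 2) and -0.08 in Cdh5 (SE 0.22; 0.09 without frail 1).

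Ltbp1 over all barcodes stood at 84.1 and 106 in the frail and 114, 94.4 and 93.9 in the control libraries (log2 -0.12, SE 0.18, edgeR adjusted p = 0.972). In its leading gates it gave log2 -0.03 in Pdgfra (SE 0.23) and -0.05 in Myh11 (SE 0.18), and without frail 1 these were 0.18 and 0.07. The Pdgfra value also turned without control 1 (0.13), and the Myh11 value without control 3 (0.0002). In the Cdh5 gate, where Ltbp1 is low, both frail libraries lay below all controls, at 25.4 and 26.9 against 39.1, 35.0 and 31.9. The fitted ratio there was 0.737 (log2 -0.44, SE 0.18), also short of the threshold (edgeR adjusted p = 1.00). In the Cdh5 gate Tgfbr1 did not overlap either, at 38.5 and 36.8 against 35.5, 33.1 and 33.2 (log2 0.15, SE 0.17). In the Myh11 gate it also did not overlap, in the other direction, at 31.6 and 31.2 against 40.8, 35.4 and 37.4 (log2 -0.19, SE 0.18). In the Cdh5 gate the 6 myofibre markers summed to 70.2 and 222 CPM in frail libraries and to 1711 to 2718 in controls, with none at 0.

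Whether the frail effect differed between the 7 gates was tested as an interaction in edgeR. None of the 9 genes passed (edgeR adjusted p = 1.00 for each), and 0.00637% of 15706 genes did. With no low-count filter Tgfb2 passed (edgeR adjusted p = 0.0149), where 842 of 33066 genes did, and it did not under the other alternatives. Ltbp4 had the smallest unadjusted p (0.0695), with log2 values from -0.37 in the Pax7 gate, where frail libraries at 251 and 216 lay below controls at 283, 271 and 328, to 0.29 in the C1qa gate, where the groups overlapped. In the Tnmd gate Ltbp4 was also lower in both frail libraries, at 177 and 237 against 258, 266 and 252 (log2 -0.31, SE 0.20).

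The frail libraries also differed from each other, in gates that all come from the same 2 frail libraries and are not independent. Tgfbr3 was higher in frail 2 than in frail 1 in 7 of 7 gates, by 1.27-fold to 1.97-fold, beside a median log2 ratio of 0.12 over all barcodes for the genes with at least 100 UMIs in the 5 libraries. The ratio of its highest to its lowest control was larger in the C1qa gate (1.81 against 1.75) and in the Pax7 gate (1.48 against 1.27). Tgfbr2, Ltbp1 and Ltbp4 were higher in frail 2 in 6 of 7 gates, with the Pax7 gate as the exception for each. Smad7 went the other way, with frail 2 above frail 1 in 1 of 7 gates and a median ratio of 0.939. Frail 1 is the library that lost most barcodes to the mitochondrial limit, and whether that bears on these ratios was not tested.

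**Figure D5:**
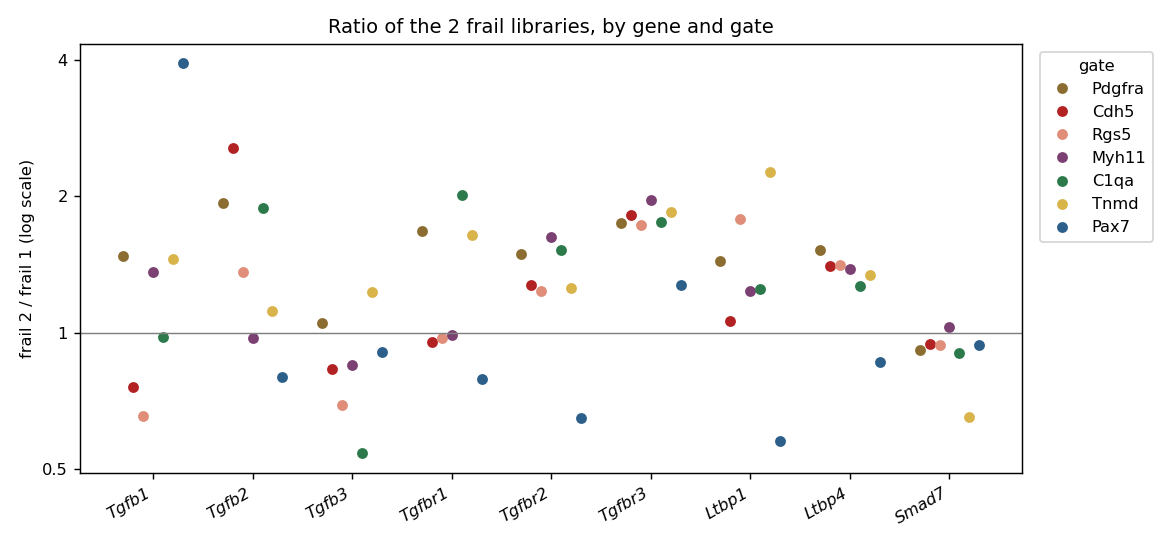
Ratio of the level in frail 2 to that in frail 1 (y axis, log scale) for each gene (x axis), with a point per gate. All 7 points of Tgfbr3 lie between 1.27 and 1.97, and 6 of the 7 points of Smad7 lie under 1.

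The surrounding pathway was read from 4 lists with 81 genes in all, and none of them passed with edgeR in any of the 8 comparisons. Over all barcodes the 22 genes of latency and activation divided into 11 higher and 11 lower in frail libraries (median log2 -0.03), and the 10 receptor partners into 4 and 6 (median -0.02). The 21 Smads and intracellular regulators divided into 10 and 11, and the 31 targets into 18 and 13 (median 0.07), beside a median of 0.00 over all genes tested. No list thus stood to one side over all barcodes. Within gates some splits were less even. In the C1qa gate 15 Smads and regulators were higher and 5 lower, and 6 latency genes were higher and 13 lower. The targets there had a median of 0.23. The endothelial markers in the C1qa gate were higher in frail libraries, as given above for Smad7. Their part in these C1qa values was not tested. In the Tnmd gate 13 Smads and regulators were higher and 6 lower. At an unadjusted p under 0.05 edgeR gave 2 of the 81 genes over all barcodes, 8 in Pdgfra, 1 in Cdh5, 1 in Rgs5, 6 in Myh11, 7 in C1qa, 3 in Tnmd and 6 in Pax7, where 64 to 81 were tested and 4.18% to 5.6% of all genes were under that p.

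The largest values of each list over all barcodes are given with no call. Among latency genes, the protease gene Mmp9 had log2 -1.06 and the macrophage anchor of latent TGF-beta Nrros -0.41, while the activating integrin subunit gene Itgb8 and the protease gene Mmp14 had 0.42 each. Macrophage markers also varied, at 392 and 531 in frail and 457 to 1147 in controls, and their part in the Nrros value was not tested. Among receptor partners, Cd109, a ligand-binding co-receptor, had -0.61, set by control 3 (33.9 against 11.5 to 13.3 in the other libraries). In that library the 4 keratinocyte markers summed to 1849 CPM against 11.7 to 15.4, and their part in the Cd109 value was not tested. The adaptor gene Dab2 had -0.32, and the endothelial receptor genes Eng and Acvrl1 had 0.23 and 0.17. Among the Smads, Smad6, the inhibitor of the bone morphogenetic protein branch, had 0.59 and Smad3 0.34, and the ubiquitin ligase genes Wwp1 and Smurf2 had -0.28 and -0.20.

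Among targets, Pdgfb, a growth factor of endothelial cells, stood at 147 and 218 in frail libraries above 104, 139 and 62.7 in controls (log2 0.80, SE 0.36, edgeR adjusted p = 0.930). The share of barcodes in the Cdh5 gate was 25.3% and 37.4% in the frail and 27.4%, 21.0% and 12.8% in the control libraries. Within that gate Pdgfb overlapped between groups (419 and 555 against 317, 420 and 313). Tagln, a smooth muscle gene, had log2 0.75, with frail 1 at 2320 and the other libraries at 792 to 1284. The matrix gene Postn and the protease inhibitor gene Timp1 had -0.74 and -0.76. Within gates, Fn1, which encodes the matrix protein fibronectin, was lower in smooth muscle barcodes, at 96.5 and 115 in frail libraries against 218, 304 and 234 in controls. The fitted log2 value was -1.19 (SE 0.20), which did not pass with edgeR (adjusted p = 0.0677) and passed with DESeq2 (adjusted p = 2.11e-05). The Myh11 gate carried the fibro-adipogenic markers at 8.22% of their Pdgfra-gate level, and the part of other cells in the Fn1 value was not tested.

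DESeq2 called 2 further list genes, named here because it called them. Over all barcodes 81 list genes were tested, and 1.44% of all genes were called. In the C1qa gate these numbers were 76 and 0.309%, and in the Myh11 gate, where Fn1 was called, 76 and 0.688%. Timp1 in the C1qa gate stood at 2.35 and 2.01 in the frail and 17.4, 6.90 and 11.5 in the control libraries (log2 -2.48, DESeq2 adjusted p = 0.0414, edgeR adjusted p = 0.314). That gate held 2552538 and 3488751 UMIs of all genes in frail libraries, so the frail values rest on few Timp1 UMIs. It carried the fibro-adipogenic markers at 9.27% of their Pdgfra-gate level, and their part in the Timp1 value was not tested. Itgb6, an epithelial integrin subunit gene that activates latent TGF-beta, stood at 0.163 and 0.0741 against 0.754, 1.17 and 1.33 over all barcodes (log2 -3.19, DESeq2 adjusted p = 4.51e-05, edgeR adjusted p = 0.445), and reached at most 1.33 CPM in any library.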

How the data were processed

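The authors deposited raw UMI counts per gene and barcode, 1 matrix for each library. Per the file headers these come from Cell Ranger 7.0.0. Seurat 4.1.2 and GRCm38 appear in the submitters' processing notes, and the annotation used for counting is not given in the sources used here. Gene positions are from GENCODE vM21, which matched 52081 of 55357 genes (94.1%).

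UMIs were summed per library over retained barcodes and over each gate, so the library is the replicate. No doublet caller was run. The quasi-likelihood test of edgeR 4.0.16, robust and with TMM factors and filterByExpr, was applied in R 4.3.3, with Benjamini-Hochberg adjustment over all genes tested at 0.05 and 2 frail against 3 control libraries. The p-values of these frail against control tests measure the spread between these libraries. The tests of a gate against the other gates had the library as a block. Their p-values therefore measure the spread left between gate sums once differences between libraries are removed. Those sums come from the same libraries and are not separate animals. Alternatives were DESeq2 1.42.0, RLE size factors, no low-count filter, a mitochondrial limit of 5%, removal of barcodes with more than 1 lineage's gate gene, 2 other gate definitions, a replicate block and leaving out each library. The gate requiring 5 times each other gate gene was chosen after seeing the data.

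The tests were run on simulated data first. The members, lists and tests were chosen with earlier results of these data known. All 9 members are reported. Of each list, the genes named are the 2 highest and 2 lowest log2 values over all barcodes with a mean of at least 5 CPM, and any gene past the threshold; the genes most like a member are the 3 with the highest correlation, of which some are not reported here for Tgfbr3.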

Additional observations from a re-analysis of the deposited data

How the results depend on the processing

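Of the 27 frailty values of single members, 293 of 333 values under the alternatives had the same sign and 40 turned, and of the 9 values for each member's leading gate 108 of 108 kept sign and threshold. With a mitochondrial limit of 5% Tgfb3 turned to -0.040 over all barcodes and to -0.091 in the Myh11 gate, and Ltbp1 to 0.28 there. Without barcodes of more than 1 lineage Tgfb3 gave -0.081, Smad7 in the Rgs5 gate -0.23 and Tgfbr2 in the C1qa gate 0.017. With a gate of 1 UMI, Ltbp1 gave 0.0023 in Pdgfra and 0.17 in Myh11, and Tgfbr2 0.21 in C1qa; in the 5-fold gate Ltbp1 gave 0.055 in Pdgfra, Smad7 -0.089 in Rgs5 and Tgfbr2 0.031 in C1qa. The cause was not tested in any of these.

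With each library left out, the signs that turned lay within these ranges over all barcodes: Tgfb1 -0.093 to 0.15, Tgfb2 -0.0032 to 0.58, Tgfb3 -0.32 to 0.31, Tgfbr1 -0.025 to 0.33, Tgfbr3 -0.33 to 0.36 and Ltbp4 -0.16 to 0.38. In the Pdgfra gate they were Tgfb2 -0.15 to 0.72, Tgfbr1 -0.15 to 0.52, Ltbp1 -0.27 to 0.18 and Ltbp4 -0.095 to 0.44, and in the Cdh5 gate Tgfb1 -0.37 to 0.16 and Ltbp4 -0.26 to 0.090. In the Myh11 gate they were Tgfb3 -0.13 to 0.18 and Ltbp1 -0.16 to 0.072, in the C1qa gate Tgfbr2 -0.28 to 0.15, and in the Tnmd gate Tgfb3 -0.086 to 0.18, Tgfbr1 -0.097 to 0.58 and Tgfbr3 -0.19 to 0.66.

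Counts of genes called over all barcodes (0 with edgeR) were 288 with DESeq2 and 15 with no low-count filter. In the Pdgfra gate (1) they were 130 with DESeq2, 140 with no filter, 2 with the gate of 1 UMI, 2 with the 5-fold gate, and 0 to 9 with each library left out. In the Cdh5 gate (9) they were 113 with DESeq2, 298 with no filter, 20 at the 5% limit, 15 and 23 with the other gates and 0 to 16 with a library left out. In the Rgs5 gate (0) they were 69, 35 with no filter and 0 to 4, and in the C1qa gate (0) 40, 189 with no filter, 1 at the 5% limit, 1 without mixed barcodes and 0 to 25. In the Myh11 gate (31) they were 84 with DESeq2, 190 with no filter, 0 without mixed barcodes, 0 with the gate of 1 UMI and 9 to 93 with a library left out. In the Tnmd gate (0) they were 26, 137 with no filter and 0 to 33. In the Pax7 gate (3) they were 17 with DESeq2, 7 with RLE factors, 88 with no filter, 7 at the 5% limit, 5 without mixed barcodes, 15 with the gate of 1 UMI and 2 to 39 with a library left out. For the difference between gates (1) they were 38 with DESeq2, 842 with no filter (Tgfb2 among them), 0 without mixed barcodes, 2 with each other gate and 0 to 36 with a library left out. Against the other gates, the gate of 1 UMI called 3004 genes in Rgs5, 4989 in Myh11, 6357 in C1qa and 4583 in Tnmd.

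Same-numbered libraries share only a number in the labels. Their deviations from the group mean correlated at -0.05 for number 1 and 0.15 for number 2. The deviations of 2 frail libraries mirror each other, so exchanging those libraries only turns the signs. These values therefore cannot decide whether libraries were paired. With the replicate block, counts were 366 over all barcodes, 129 in Pdgfra, 33 in Cdh5, 100 in Rgs5, 395 in Myh11, 54 in Tnmd and 11 in Pax7. The remaining control shares its number with no frail library, so it adds nothing to the frail effect under the block. These counts therefore rest on 2 pairs matched by number alone, with little left to estimate the spread. Under the block Tgfb1 gave -0.093 over all barcodes, and Tgfb3 gave -0.0054 there, -0.036 in Myh11 and -0.010 in Tnmd.

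Depth limits the small gates most: Tgfb1 in the Pax7 gate rests on 6 to 26 UMIs per library and Tgfb2 there on as few as 6.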
